A study of Mus musculus with 6 samples.

Results

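The unfolded protein response and the integrated stress response were followed through 32 genes in the mouse cell line TC-1, labelled as a lung adenocarcinoma. One group of 3 libraries came from cells given murine interferon-gamma (IFN-gamma, a cytokine of activated T and NK cells) at 20 ng/ml for 72 h. The other 3 libraries came from cells left without the cytokine for those 72 h, and both groups grew in RPMI medium with serum and antibiotics. The 32 genes were chosen by symbol, as rows of the deposited table of 23282 genes, and each symbol stood on 1 row. Of them, 31 had enough counts to be tested, among 12191 tested genes in all, and the remaining member was Derl3. All 6 libraries come from one cell line. The labels do not say whether replicates were separate cultures, so p-values measure a spread between libraries that may be technical.

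Proteins that enter the secretory pathway fold in the endoplasmic reticulum (ER). When folding fails, the sensors IRE1 (Ern1), PERK (Eif2ak3) and ATF6 signal to the nucleus. ATF6 and the spliced form of XBP1 raise ER chaperones and the genes of ER-associated degradation (ERAD), which returns misfolded proteins to the cytosol for destruction. PERK and the other eIF2 kinases slow translation and favour the making of ATF4, a transcription factor whose targets include Ddit3 (CHOP), Chac1, Trib3, Asns and Atf3. This shared branch is the integrated stress response. Splicing of Xbp1, cleavage of ATF6 and phosphorylation of eIF2 leave no trace in counts per gene and were not measured.

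In IFN-gamma-treated cells 9 of the 31 tested members rose and 1 fell, the largest change being 57.8% (Dnajb11). The members that rose were the ER chaperone and folding genes Hspa5, Dnajb11, Manf, Dnajc3, Hyou1 and Pdia6, the ERAD ligase gene Syvn1, and the ATF4 genes Chac1 and Atf3. Herpud1, an ERAD scaffold gene, fell. The transcription factor genes Xbp1 and Atf4 and the sensor genes did not pass the test. Among all tested genes 9.88% were higher and 7.56% lower. Among those with a mean of at least 10 CPM (counts scaled to library size) 11.7% were higher and 9.12% lower. Of the 29 members at that level, 9 were higher and 1 was lower. The test was edgeR's quasi-likelihood test with Benjamini-Hochberg adjustment over all tested genes and a threshold of 0.05. The split of all calls depended on the scaling of the libraries. Of the called genes 56.6% were higher with TMM factors, 41.6% with upper-quartile factors and 44.5% with total counts alone. With either of the last scalings 7 members were higher and 2 lower. In bulk samples a change in the share of cells in some state and a change in RNA per cell cannot be told apart.

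Library totals ran from 7302687 to 10861336 counts, and the ribosomal precursor row Rn45s held from 5.81% to 9.69% of them. The first principal component of log2 CPM (63.9% of the variance) separated the groups. As a check of the treatment, Irf1, a transcription factor gene that IFN-gamma induces, had 882, 899 and 919 CPM in IFN-gamma libraries, against 83.1, 70.5 and 65.3 CPM in untreated libraries. The label of an adenocarcinoma line was not borne out by 9 epithelial markers. Sftpb was at 0 in every library, Epcam, Krt18, Nkx2-1, Sftpc, Scgb1a1 and Cdh1 stayed under 1 CPM, and Krt8 under 3 CPM. Krt19 had 9.5, 6.47 and 8.18 CPM in IFN-gamma libraries and 12.4, 13.6 and 16.4 CPM in untreated libraries. The mesenchymal gene Vim also moved, with 5260, 4880 and 4790 CPM in IFN-gamma libraries and 7090, 6830 and 7120 CPM in untreated libraries. The part of such shifts in the results was not tested.

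**Figure D1:**
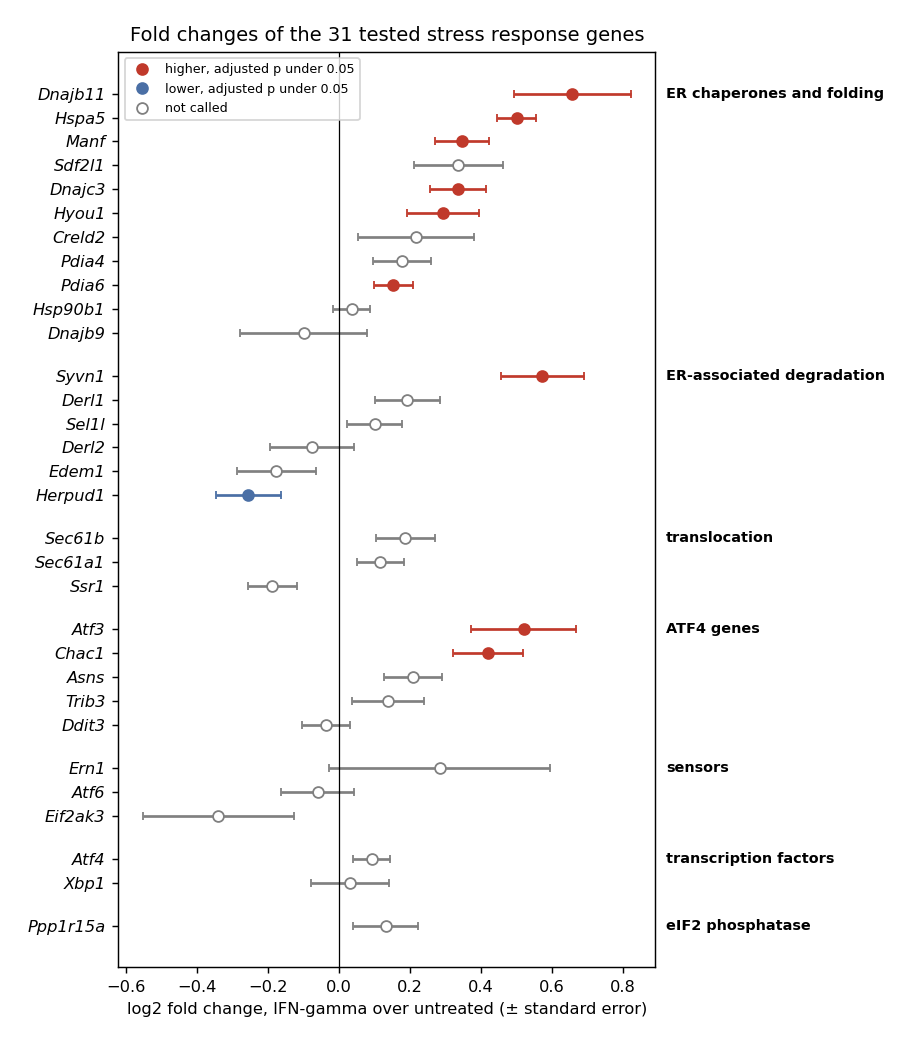
Log2 fold change (IFN-gamma over untreated, x axis) of each of the 31 tested genes, with its standard error, ordered within roles. Filled points passed the test: 9 genes lie to the right of 0 and Herpud1 lies to the left, and no value exceeds 0.66.

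Some of the members carry in their promoters the element by which ATF6 is known to act, and these are shown with the call of each gene. RefSeq promoter windows (GRCm38.p6, 250 bases before to 50 after the start site) were held for 27 of the 32 members, in 28 windows; Atf6, Hyou1, Manf, Derl1 and Sec61a1 were not matched. The ER stress element (ERSE, letters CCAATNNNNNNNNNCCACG, both strands) stood in 7 of the 27 members, and in 37 of 27025 genes with a window (0.137%). Its shorter relative ERSE-II (ATTGG and CCACG with 1 base between, both strands) stood in 2 members and in 12 of the 27025 genes (0.044%). The ERSE was first described in promoters of ER chaperone genes, so its presence here is no independent observation. In the 250 bases before the start site of Hspa5 (chr2:34771840-34772089, plus strand) and of Herpud1 (chr8:94386179-94386428, plus strand), capitals mark fixed motif letters. They belong to the exact ERSE match in Hspa5, and in Herpud1 to the ATF4-binding CARE core (TGATGNAA) followed by an ERSE-II. Copies with a mismatch were not searched for, such as ccaatcagcggcctccaac in the Hspa5 sequence.
Hspa5: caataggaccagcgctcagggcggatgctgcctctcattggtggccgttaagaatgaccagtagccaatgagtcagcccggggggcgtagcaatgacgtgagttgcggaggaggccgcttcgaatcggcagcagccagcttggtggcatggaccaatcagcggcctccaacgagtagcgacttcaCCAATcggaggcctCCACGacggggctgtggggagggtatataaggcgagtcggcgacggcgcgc
Herpud1: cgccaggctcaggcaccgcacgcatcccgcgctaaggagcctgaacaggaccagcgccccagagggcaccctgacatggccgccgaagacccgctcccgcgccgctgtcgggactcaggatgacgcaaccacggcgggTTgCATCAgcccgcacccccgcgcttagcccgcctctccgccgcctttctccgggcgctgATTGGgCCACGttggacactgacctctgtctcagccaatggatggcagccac

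The other ERSE and ERSE-II matches are given with 10 bases on each side, in the direction of the gene, with the fixed letters in capitals. The matches in Creld2 and Derl3 and the second in Hsp90b1 read on the opposite strand. The first 4 lines are members that rose.
Syvn1, chr19:6046522-6046560, plus strand: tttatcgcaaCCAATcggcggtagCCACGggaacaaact
Dnajc3, chr14:118937817-118937855, plus strand: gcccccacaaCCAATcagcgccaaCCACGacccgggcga
Pdia6, chr12:17266481-17266519, plus strand: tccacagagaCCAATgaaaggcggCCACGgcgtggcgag
Dnajb11 (ERSE-II), chr16:22857842-22857872, plus strand: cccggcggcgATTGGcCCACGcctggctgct
Hsp90b1, chr10:86705628-86705666, minus strand: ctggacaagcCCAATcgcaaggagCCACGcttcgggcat
Hsp90b1, chr10:86705523-86705561, minus strand: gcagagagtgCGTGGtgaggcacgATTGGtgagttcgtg
Creld2, chr15:88819510-88819548, plus strand: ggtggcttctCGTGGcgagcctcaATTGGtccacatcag
Derl3, chr10:75893232-75893270, plus strand: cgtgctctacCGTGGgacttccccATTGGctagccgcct

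An ERSE or ERSE-II thus stood in 5 of the 7 members that rose and have a window (Hspa5, Syvn1, Dnajc3, Pdia6 and Dnajb11). It also stood in Herpud1, which fell, in 2 of 18 members that were not called (Hsp90b1 and Creld2) and in the untested Derl3. All of these are chaperone or ERAD genes, whereas the 18 also include sensors, factors, translocation genes and ATF4 genes. The split thus repeats the role lists in part, and a link between motif and call was not tested. The XBP1 site known as the UPRE core (exact letters TGACGTGG, both strands) was in none of the 28 windows and in 0.676% of all windows. The Hspa5 sequence above holds tgacgtga, which differs in the last base and was not counted. A motif of interferon-responsive promoters was looked for as well. The ISRE core (GAAA and GAAA with 2 bases between, both strands) stood in Ppp1r15a alone, and in 3.99% of all genes with a window. Ppp1r15a was not called. A match describes letters and not a bound site.

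Among the 11 ER chaperone and folding genes, 6 rose and 0 fell, against 9.88% and 7.56% of all tested genes. Their median log2 fold change was 0.29, against -0.01 over all tested genes. Hspa5, which encodes BiP, the main Hsp70 chaperone of the ER and the sensor-binding protein that holds the pathway inactive, had 1547, 1643 and 1401 CPM in IFN-gamma replicates 1, 2 and 3, against 1055, 1106 and 1084 CPM in untreated replicates 1, 2 and 3. Every IFN-gamma library lay above every untreated one, and the level was 41.5% higher (log2 fold change 0.50 ± 0.05 SE, edgeR adjusted p = 1.31e-09). Hspa5 overlaps Rabepk in the annotation, which had 41.1, 39.3 and 47.7 CPM in IFN-gamma libraries and 35.6, 36.8 and 32.1 CPM in untreated libraries (log2 0.29 ± 0.11 SE, edgeR adjusted p = 0.0726). Dnajb11, a J-domain partner of BiP, had 23.8, 22.5 and 19.4 CPM in IFN-gamma libraries, against 14.3, 10.6 and 16.5 CPM in untreated libraries. It had the highest fold change of the 31 tested members (log2 0.66 ± 0.16 SE, edgeR adjusted p = 0.00317) and one of the least precise, since it rested on 78 to 256 counts per library. Dnajc3, another J-domain protein that is also known as an inhibitor of eIF2 kinases, had 107, 119 and 108 CPM in IFN-gamma libraries and 83.4, 87.9 and 93.1 CPM in untreated libraries, again without overlap (log2 0.34 ± 0.08 SE, edgeR adjusted p = 0.00185).

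Manf, a small secreted ER protein that binds BiP, had 143, 136 and 164 CPM in IFN-gamma libraries, against 112, 115 and 121 CPM in untreated libraries. The groups did not overlap (log2 0.35 ± 0.08 SE, edgeR adjusted p = 0.000693). Hyou1, a large Hsp70-like chaperone that acts as an exchange factor for BiP, had 50.2, 52.0 and 52.2 CPM in IFN-gamma libraries and 42.3, 41.0 and 42.5 CPM in untreated libraries (log2 0.29 ± 0.10 SE, edgeR adjusted p = 0.0375). Pdia6, a protein disulfide isomerase, had 504, 526 and 523 CPM in IFN-gamma libraries and 465, 462 and 470 CPM in untreated libraries (log2 0.15 ± 0.06 SE, edgeR adjusted p = 0.0486). Both sets of libraries were tightly spaced and did not overlap, yet both calls lay near the threshold. That of Hyou1 was lost when any one of the 6 libraries was left out (adjusted p between 0.0649 and 0.108), and under both scalings named above (0.0896 and 0.0899), with thinned counts (0.0872) and in DESeq2 (0.0586). That of Pdia6 was lost without IFN-gamma replicate 1 or 2 or untreated replicate 1, 2 or 3 (adjusted p between 0.0509 and 0.159). It was also lost under both scalings (0.218 and 0.213), when low counts were not filtered (0.0533) and with no robust fit (0.0583).

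The 5 other chaperone and folding genes were not called. Sdf2l1, an ER protein that works with BiP and its J-domain partners, had 33.9, 30.7 and 35.1 CPM in IFN-gamma libraries, against 25.8, 27.7 and 25.5 CPM in untreated libraries, with a fold change like that of Manf (log2 0.34 ± 0.12 SE, edgeR adjusted p = 0.0554). It passed without IFN-gamma replicate 2 (adjusted p = 0.0431). Pdia4, a disulfide isomerase, had overlapping groups (log2 0.18 ± 0.08 SE, edgeR adjusted p = 0.143) and passed without IFN-gamma replicate 1 (adjusted p = 0.0202) or untreated replicate 2 (adjusted p = 0.0218). Creld2, a secreted ER stress protein, also overlapped, with 25.9, 17.5 and 26.1 CPM in IFN-gamma libraries and 24.5, 18.6 and 16.6 CPM in untreated libraries. The ER member of the Hsp90 family, Hsp90b1, had 1246, 1259 and 1148 CPM in IFN-gamma libraries and 1185, 1189 and 1190 CPM in untreated libraries (log2 0.04 ± 0.05 SE, edgeR adjusted p = 0.708). It holds 2 ERSE matches, and its sign turned under both scalings. Dnajb9, a J-domain gene best known as an XBP1 target, had -0.10 ± 0.18 (SE, edgeR adjusted p = 0.774).

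**Figure D2:**
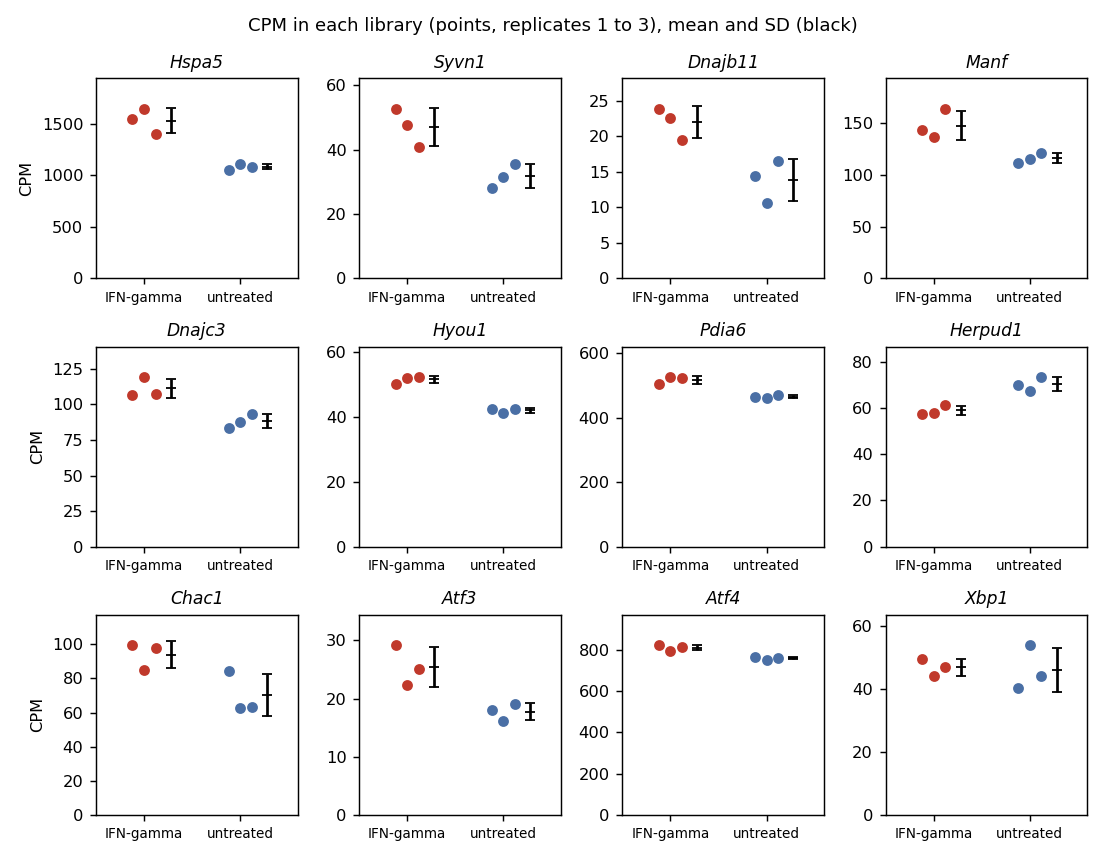
CPM (y axis, from 0) of the 10 genes that passed the test and of Atf4 and Xbp1, by group (x axis), with 1 point per library and the mean and SD beside the points (n = 3). Each of the 10 genes has groups that do not touch, by a wide margin in Hspa5 and by a narrow one in Chac1 (lowest IFN-gamma library 84.7 CPM, highest untreated library 84.4 CPM).

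Of the 7 ERAD genes, 6 were tested, 1 rose and 1 fell, against 9.88% and 7.56% of all tested genes. Their median log2 fold change was 0.01. Syvn1, which encodes HRD1, the membrane ubiquitin ligase at the centre of ERAD, had 52.6, 47.8 and 40.8 CPM in IFN-gamma libraries, against 28.05, 31.5 and 35.5 CPM in untreated libraries. It was 48.8% higher, without overlap (log2 0.57 ± 0.12 SE, edgeR adjusted p = 0.000337). Syvn1 overlaps Mrpl49 in the annotation, and the counting is not stated to use strand. Mrpl49 had 53.9, 52.7 and 49.3 CPM in IFN-gamma libraries and 50.5, 40.5 and 53.4 CPM in untreated libraries (log2 0.11 ± 0.11 SE, edgeR adjusted p = 0.562). Herpud1, which joins HRD1 to other parts of the ERAD complex, moved the other way, with 57.6, 58.0 and 61.3 CPM in IFN-gamma libraries and 70.0, 67.5 and 73.4 CPM in untreated libraries. All IFN-gamma libraries lay below all untreated ones (log2 -0.26 ± 0.09 SE, edgeR adjusted p = 0.0457). The call was lost without IFN-gamma replicate 1 or 2 or untreated replicate 1, 2 or 3 (adjusted p between 0.0616 and 0.189). It was also lost when low counts were not filtered (0.0651), in DESeq2 (0.0733) and in limma on the deposited log2 values (0.0538).

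Sel1l, the partner that holds HRD1 in place, had 102, 108 and 101 CPM in IFN-gamma libraries and 99.0, 96.9 and 94.3 CPM in untreated libraries (log2 0.10 ± 0.08 SE, edgeR adjusted p = 0.421), a difference that did not pass. The mannosidase-like gene Edem1 had -0.18 ± 0.11 (SE, edgeR adjusted p = 0.309), with every IFN-gamma library below every untreated one. Derl2, a channel component that overlaps Mis12, had -0.08 ± 0.12 (SE, edgeR adjusted p = 0.733). The other channel component Derl1 had 0.19 ± 0.09 (SE, edgeR adjusted p = 0.154), and without IFN-gamma replicate 3 it passed (adjusted p = 0.0432). Derl3, a derlin mostly of secretory tissues, had 2 counts in IFN-gamma replicate 1 and 0 in the other 5 libraries, so no change was measurable at this depth. The 3 translocation genes were not called. Sec61a1 and Sec61b, subunits of the channel that admits new proteins to the ER, had 0.12 ± 0.07 and 0.19 ± 0.08 (SE, edgeR adjusted p = 0.254 and 0.126). Ssr1, a subunit of the translocon-associated complex, had 141, 142 and 151 CPM in IFN-gamma libraries, against 159, 170 and 167 CPM in untreated libraries, all lower but just past the threshold (log2 -0.19 ± 0.07 SE, edgeR adjusted p = 0.051). Ssr1 passed with both scalings (adjusted p = 0.0105 and 0.0166), with the replicate number as a block (0.0411) and without IFN-gamma replicate 3 (0.0207), and Sec61a1 passed without IFN-gamma replicate 3 (0.0221).

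The ATF4 genes were divided: 2 of 5 rose and 0 fell, against 9.88% and 7.56% of all tested genes. Their median log2 fold change was 0.21. ATF4 and its C/EBP partners are known to bind the CARE core (TGATGNAA, searched on both strands). It stood in 4 of the 5 genes, which are shown for that reason, and in 1219 of 27025 genes with a window (4.51%). The 5 genes were listed as ATF4 targets, so its presence here is no independent observation. Beyond these 4, the match in Herpud1 shown above was the only one among members. The match in Asns reads in the direction of the gene and the others on the opposite strand. Capitals mark the fixed letters.
Chac1, chr2:119351039-119351066, plus strand: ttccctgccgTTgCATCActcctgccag
Atf3, chr1:191183426-191183453, minus strand: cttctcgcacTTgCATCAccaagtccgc
Asns, chr6:7693215-7693242, minus strand: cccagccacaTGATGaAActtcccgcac
Trib3, chr2:152344029-152344056, minus strand: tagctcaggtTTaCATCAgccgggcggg

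Chac1, an enzyme that degrades glutathione, had 99.4, 84.7 and 97.8 CPM in IFN-gamma libraries, against 84.4, 62.6 and 63.5 CPM in untreated libraries (log2 0.42 ± 0.10 SE, edgeR adjusted p = 0.002). Untreated replicate 1 was well above its group and came within 1 CPM of the lowest IFN-gamma library. Atf3, a stress-induced transcription factor gene of the same family as ATF4, had 29.1, 22.3 and 25.01 CPM in IFN-gamma libraries and 17.98, 16.2 and 19.1 CPM in untreated libraries, without overlap (log2 0.52 ± 0.15 SE, edgeR adjusted p = 0.00953). The Atf3 call was lost without IFN-gamma replicate 1 (adjusted p = 0.102) or untreated replicate 2 (adjusted p = 0.0511). Asns, asparagine synthetase, had 109, 94.4 and 97.0 CPM in IFN-gamma libraries and 90.3, 87.9 and 82.2 CPM in untreated libraries. Its groups did not overlap, but it was not called (log2 0.21 ± 0.08 SE, edgeR adjusted p = 0.0754) except without IFN-gamma replicate 2 (adjusted p = 0.0493).

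Trib3, a pseudokinase gene induced by ATF4 and CHOP, had 65.2, 62.6 and 79.0 CPM in IFN-gamma libraries and 71.4, 56.8 and 59.1 CPM in untreated libraries, with overlap (log2 0.14 ± 0.10 SE, edgeR adjusted p = 0.396). The Trib3 value was 0.03 without IFN-gamma replicate 3 and 0.25 without untreated replicate 1, and it was called in neither. Ddit3, which encodes the pro-apoptotic factor CHOP, had 201, 202 and 213 CPM in IFN-gamma libraries, against 229, 214 and 190 CPM in untreated libraries (log2 -0.04 ± 0.07 SE, edgeR adjusted p = 0.782). Its untreated libraries were spread more widely than the IFN-gamma ones and enclosed them, and without untreated replicate 1 its sign turned to 0.03. Ddit3 overlaps Mars and Mbd6 in the annotation, which had 0.01 ± 0.07 and -0.23 ± 0.12 (log2, SE, edgeR adjusted p = 0.961 and 0.206). Ppp1r15a, which encodes GADD34, the phosphatase subunit that reverses eIF2 phosphorylation, had 95.3, 87.3 and 111 CPM in IFN-gamma libraries and 102, 80.8 and 84.7 CPM in untreated libraries (log2 0.13 ± 0.09 SE, edgeR adjusted p = 0.372). The groups overlapped, and the Ppp1r15a value moved with the same libraries, to 0.035 without IFN-gamma replicate 3 and 0.24 without untreated replicate 1.

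The factors and sensors above these targets were not called. Atf4 had 822, 797 and 813 CPM in IFN-gamma libraries, against 767, 754 and 761 CPM in untreated libraries. The groups did not overlap and were close (log2 0.09 ± 0.05 SE, edgeR adjusted p = 0.248). Xbp1 had 49.5, 44.3 and 46.9 CPM in IFN-gamma libraries and 40.5, 53.9 and 44.0 CPM in untreated libraries, where replicate 2 was the highest of all 6 (log2 0.03 ± 0.11 SE, edgeR adjusted p = 0.896). Atf6, 42.1, 45.0 and 47.8 CPM in IFN-gamma libraries and 49.0, 46.2 and 45.2 CPM in untreated libraries, overlapped as well (log2 -0.06 ± 0.10 SE, edgeR adjusted p = 0.759). The kinase sensors had few counts, from 25 to 107 per library. Eif2ak3 had 8.75, 6.92 and 8.18 CPM in IFN-gamma libraries, against 9.63, 9.37 and 11.2 CPM in untreated libraries, all IFN-gamma libraries being lower (log2 -0.34 ± 0.21 SE, edgeR adjusted p = 0.307). Ern1 had 5.59, 4.13 and 4.74 CPM in IFN-gamma libraries and 3.85, 3.396 and 4.60 CPM in untreated libraries (log2 0.28 ± 0.31 SE, edgeR adjusted p = 0.608), from 25 to 60 counts per library. With that SE, a difference of the size seen in Hspa5 was not detectable in Ern1.

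Set side by side, 7 of the 17 tested chaperone and ERAD genes were higher and 1 lower (median log2 fold change 0.19), and 2 of the 5 ATF4 genes were higher (median 0.21). Among all tested genes 9.88% were higher and 7.56% lower. The difference between these lists was not tested. By library, the median log2 level of the 11 chaperone and folding genes, set against each gene's untreated mean (pseudocount 0.5 CPM), was 0.28, 0.23 and 0.31 in IFN-gamma replicates 1, 2 and 3, against -0.03, 0.00 and 0.01 in untreated replicates 1, 2 and 3. Those of the 6 ERAD genes were 0.02, 0.10 and -0.07 in IFN-gamma libraries and 0.01, -0.03 and 0.01 in untreated libraries. Those of the 5 ATF4 genes were 0.33, 0.12 and 0.34 in IFN-gamma libraries and 0.13, -0.13 and -0.08 in untreated libraries. The chaperone medians were separated between the groups, whereas the ERAD medians overlapped and the ATF4 median of untreated replicate 1 lay just above that of IFN-gamma replicate 2. Over all tested members, the IFN-gamma libraries lay wholly above the untreated ones in 13 genes (16.2% of all tested genes did so) and wholly below in 4 (15.6% of all tested genes).

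**Figure D3:**
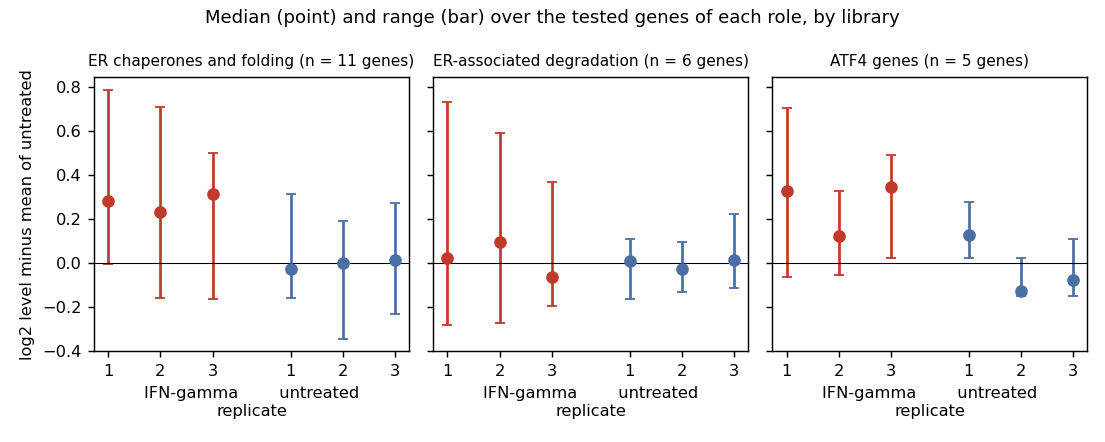
Median (point) and full range over genes (bar) of the log2 level relative to the untreated mean, for each library (x axis), in 3 roles of the stress response. The chaperone medians of IFN-gamma libraries (0.23 to 0.31) stand apart from those of untreated libraries (-0.03 to 0.01), while the ERAD and ATF4 medians of the groups overlap.

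Other genes of the same pathways, 172 in 11 lists, were counted in the same fit. Among all tested genes 9.88% were higher and 7.56% lower, and 11.7% and 9.12% of those with a mean of at least 10 CPM. Of 22 tested further ER folding genes, 3 were higher and 2 lower (13.6% and 9.09%), near those shares. Their median log2 fold change was -0.01. Calr, the calcium-binding lectin chaperone calreticulin, averaged 775 ± 63.5 CPM in IFN-gamma libraries and 593 ± 23.1 CPM in untreated libraries (SD, n = 3 each; log2 0.39 ± 0.06 SE, edgeR adjusted p = 1.79e-06). Uggt1, the glucosyltransferase that tests glycoprotein folding, averaged 161 ± 13.6 CPM in IFN-gamma libraries and 119 ± 0.67 CPM in untreated libraries (log2 0.44 ± 0.07 SE, edgeR adjusted p = 1.28e-05). Ero1l and P4hb, enzymes of disulfide formation, went the other way. Ero1l, the ER oxidase, averaged 506 ± 32.8 CPM in IFN-gamma libraries and 643 ± 41.7 CPM in untreated libraries (log2 -0.35 ± 0.06 SE, edgeR adjusted p = 1.87e-05). P4hb, protein disulfide isomerase, had -0.21 ± 0.06 (SE, edgeR adjusted p = 0.00844). Leaving out untreated replicate 2 or 3 ended that call (adjusted p = 0.0607 and 0.0719) and left 1 gene lower. The third gene that was higher, Fkbp11 (0.42 ± 0.14 SE, edgeR adjusted p = 0.0389), is named to complete the count after its value was seen, as are the later genes given with a log2 value alone. Its call was lost in 9 of 15 alternatives, among them leaving out any library but IFN-gamma replicate 3 (adjusted p between 0.0511 and 0.236 over the 9).

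Of 19 further ERAD genes 4 were higher and 0 lower (median 0.07), against 9.88% and 7.56% of all tested genes. Vimp, the VCP-binding membrane protein selenoprotein S, averaged 110 ± 15.7 CPM in IFN-gamma libraries and 85.2 ± 2.17 CPM in untreated libraries (SD, n = 3 each; log2 0.37 ± 0.09 SE, edgeR adjusted p = 0.00175). The genes of the segregase that pulls proteins out of the ER membrane rose together by small amounts, Vcp by 0.20 ± 0.06 (SE, edgeR adjusted p = 0.00939) and its cofactors Ufd1l and Nploc4 by 0.26 and 0.32. These calls depended on the setting. Under both scalings, or without untreated replicate 1, only 1 gene of the list was higher, and without IFN-gamma replicate 1 or 2 only 2 were. Of 23 further translocation, signal peptidase and export genes (median 0.09) 1 was higher and 1 lower (4.35% each), below the shares of all tested genes. The one higher was Sec13 of the COPII coat (0.47 ± 0.10 SE, edgeR adjusted p = 0.000781). The only one lower was Sec61g (-0.16 ± 0.06 SE, edgeR adjusted p = 0.0494). The Sec61g call was lost in 10 of 15 alternatives (adjusted p between 0.0521 and 0.183), among them leaving out any library but IFN-gamma replicate 2. Without IFN-gamma replicate 3 the list had 4 genes higher.

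Among 19 tested further ATF4 and CHOP targets, 3 were higher and 2 lower (15.8% and 10.5%, against 9.88% and 7.56% of all tested genes). Their median was -0.08. Nupr1, a small stress-induced chromatin protein, averaged 53.8 ± 7.9 CPM in IFN-gamma libraries and 33.0 ± 7.02 CPM in untreated libraries (SD, n = 3 each; log2 0.70 ± 0.13 SE, edgeR adjusted p = 0.000139). Slc7a11, the cystine transporter, averaged 147 ± 13.04 CPM in IFN-gamma libraries and 118 ± 11.3 CPM in untreated libraries (log2 0.32 ± 0.08 SE, edgeR adjusted p = 0.00299). The third was Cth (0.38), a call lost in 7 of 15 alternatives (adjusted p between 0.0607 and 0.154), among them without IFN-gamma replicate 1 or 3 or untreated replicate 2 or 3. Ndrg1, which hypoxia also induces, averaged 268 ± 14.04 CPM in IFN-gamma libraries and 372 ± 19.1 CPM in untreated libraries (log2 -0.48 ± 0.06 SE, edgeR adjusted p = 6.81e-08). Vldlr had -0.24 ± 0.08 (SE, edgeR adjusted p = 0.0391), which missed the threshold without IFN-gamma replicate 1 or 2 or untreated replicate 2 or 3 and in DESeq2 (adjusted p between 0.0901 and 0.25). Under both scalings 4 genes of the list were lower. Of 15 tested genes of amino acid synthesis and transport, which ATF4 is also known to raise, 3 were higher and 0 lower (median 0.17). They were the serine pathway genes Phgdh (0.40 ± 0.08 SE, edgeR adjusted p = 0.000456) and Psat1 (0.24) and the folate enzyme gene Mthfd2 (0.25 ± 0.06 SE, edgeR adjusted p = 0.00271).

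Of 14 genes of cytosolic tRNA charging 6 were higher and 0 lower (median 0.15), against 9.88% and 7.56% of all tested genes. Wars, tryptophanyl-tRNA synthetase, a gene long known to be induced by IFN-gamma, averaged 143 ± 6.71 CPM in IFN-gamma libraries and 23.4 ± 2.14 CPM in untreated libraries (SD, n = 3 each), 6.09-fold higher (log2 2.61 ± 0.09 SE, edgeR adjusted p = 4.32e-25). The next by adjusted p, Tars, had 0.33 ± 0.07 (SE, edgeR adjusted p = 0.000284), and the other 4 that were higher, Aars, Gars, Lars and Nars, had between 0.20 and 0.32. Leaving out single libraries ended the calls of Gars (IFN-gamma replicate 1, untreated replicate 1 or 3) and Lars (IFN-gamma replicate 3, untreated replicate 1, 2 or 3). Gars was also lost with upper-quartile factors (edgeR adjusted p = 0.0559). Lars was also lost with upper-quartile factors (edgeR adjusted p = 0.125), total counts alone (0.116) and thinned counts (0.0606). Among 13 genes of eIF2 kinases, eIF2 and its exchange factor 3 were higher and 0 lower (median 0.18). Eif2ak2, which encodes PKR, the interferon-induced eIF2 kinase that senses double-stranded RNA, averaged 87.3 ± 1.62 CPM in IFN-gamma libraries and 28.5 ± 1.82 CPM in untreated libraries, 3.07-fold higher (log2 1.62 ± 0.10 SE, edgeR adjusted p = 3.98e-17), whereas the PERK gene Eif2ak3 was not called. Eif2s2, a subunit of eIF2, had 0.29 ± 0.05 (SE, edgeR adjusted p = 7.99e-05), and Eif2b2 had 0.21. The Eif2b2 call was lost in 6 of 15 alternatives (adjusted p between 0.0514 and 0.15), among them without IFN-gamma replicate 3 or untreated replicate 1 or 2, and with thinned counts 5 genes of the list were higher.

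**Figure D4:**
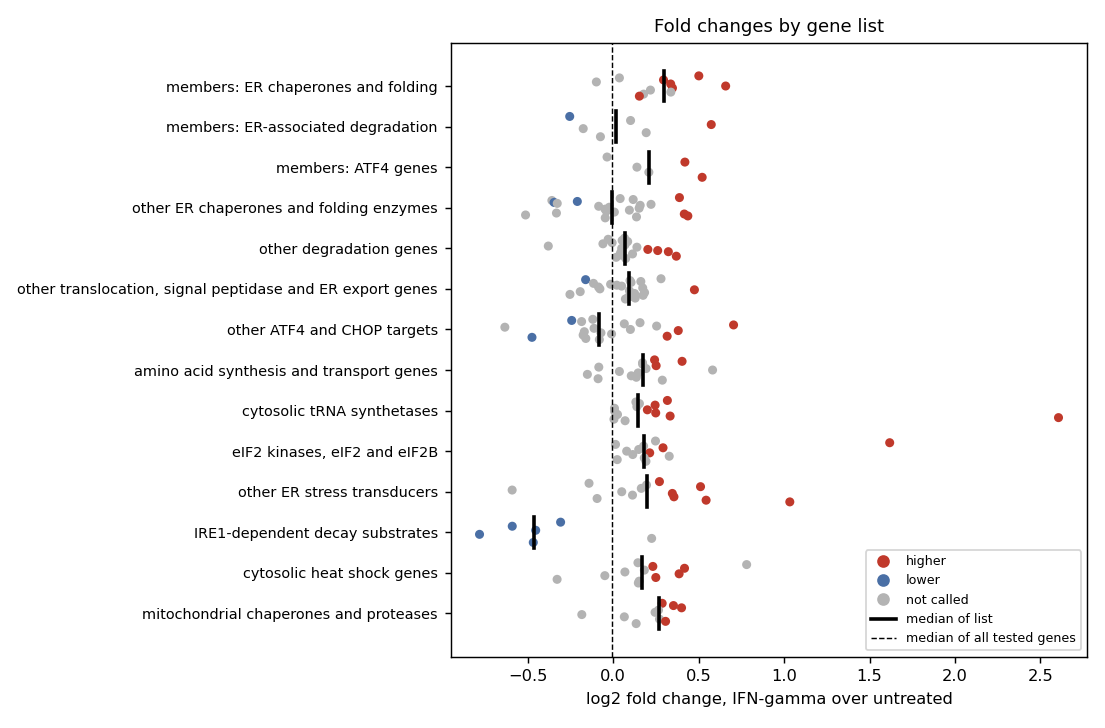
Log2 fold change (IFN-gamma over untreated, x axis) of every tested gene of 3 member roles and 11 lists of related genes (rows), coloured by call, with each list's median (bar) and the median of all 12191 tested genes (dashed line, -0.01). Wars (2.61), Eif2ak2 (1.62) and Casp12 (1.03) stand far to the right, and the list of IRE1-dependent decay substrates has the lowest median (-0.46).

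Of 13 tested further transducers of ER stress, 6 were higher and 0 lower (median 0.19), against 9.88% and 7.56% of all tested genes. Casp12, an ER-associated inflammatory caspase gene of rodents, averaged 121 ± 20.5 CPM in IFN-gamma libraries and 59.3 ± 5.46 CPM in untreated libraries (SD, n = 3 each), 2.05-fold higher (log2 1.03 ± 0.10 SE, edgeR adjusted p = 1.13e-09). Tmbim6, which encodes the IRE1-binding protein Bax inhibitor-1, had 0.35 ± 0.06 (SE, edgeR adjusted p = 4.41e-05). The other 4 were Rtcb (0.36), the ligase that joins the Xbp1 exons, Bak1 (0.54), Creb3 (0.51) and Atf6b (0.27). The Atf6b call was lost in 11 of 15 alternatives (adjusted p between 0.0501 and 0.192), among them leaving out any library but untreated replicate 2. That of Creb3 was lost without IFN-gamma replicate 1 or untreated replicate 1 or 3 (adjusted p between 0.063 and 0.0937).

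Of 6 transcripts that active IRE1 is known to cut in mouse cells, 5 were lower and 0 higher (median log2 fold change -0.46). Of all tested genes 7.56% were lower. This list, like the others, was chosen with earlier results of these data known. Col6a1, a collagen VI chain gene, averaged 38.8 ± 2.69 CPM in IFN-gamma libraries and 66.6 ± 3.4 CPM in untreated libraries (SD, n = 3 each; log2 -0.78 ± 0.10 SE, edgeR adjusted p = 6.05e-08). Sparc, a secreted matrix protein gene, averaged 561 ± 35.1 CPM in IFN-gamma libraries and 775 ± 58.7 CPM in untreated libraries (log2 -0.47 ± 0.06 SE, edgeR adjusted p = 5.4e-08). Scara3 (-0.59), the lysosomal gene Hgsnat (-0.45) and Bloc1s1 (-0.31) were lower too, and the receptor gene Pdgfrb was not called (0.22). Without untreated replicate 3 only 3 of the 6 were lower, since Bloc1s1 and Hgsnat missed the threshold (adjusted p = 0.0882 and 0.0731). Bloc1s1 also did without IFN-gamma replicate 2 (0.0529), and Hgsnat without IFN-gamma replicate 1 (0.258) or untreated replicate 1 (0.13) and in DESeq2 (0.0801). The Hgsnat log2 value without IFN-gamma replicate 1 was -0.29. The list mixes matrix genes with others. Col1a1, a collagen gene outside it, was lower as well, with 103, 82.5 and 95.2 CPM in IFN-gamma libraries and 118, 130 and 140 CPM in untreated libraries (edgeR adjusted p = 4.09e-05). Whether IRE1 takes part in these differences was not tested.

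Chaperones of other compartments were counted beside those of the ER, and among all tested genes 9.88% were higher and 7.56% lower. Of 12 tested cytosolic heat shock genes 4 were higher and 0 lower (median 0.17), with the Hsp110 family genes Hspa4 (0.42 ± 0.06 SE, edgeR adjusted p = 5.34e-06) and Hsph1 (0.39 ± 0.09 SE, edgeR adjusted p = 0.000816) first, then Dnaja1 (0.25) and Hspa8 (0.23). Of 10 mitochondrial chaperone and protease genes 4 were higher and 0 lower (median 0.27), with the chaperonin pair Hspd1 (0.35 ± 0.06 SE, edgeR adjusted p = 2.14e-05) and Hspe1 (0.40 ± 0.07 SE, edgeR adjusted p = 5.45e-05), followed by Htra2 (0.31) and Hspa9 (0.29). Under both scalings, or without IFN-gamma replicate 3, 1 gene of that list was lower. The sizes were like those of the ER chaperones, and whether the lists differ was not tested.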

How the data were processed

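RNA-seq was deposited as 1 table with 2 values per gene for each of 6 libraries. One is a raw count, a whole number as deposited. The other, a log2 value, is normalized per the file headers, which name no scaling. Per the submitters' processing notes, Bowtie2 and edgeR (no version) and hg19, a human build, were named for these mouse samples. Gene symbols were used as given, and coordinates belong to the RefSeq promoter table (GRCm38.p6) alone. Per the labels' protocols, a poly(A) stranded kit and a 3' end kit were both named, so levels of different genes were not compared. Counter and strand setting are not given in the sources used here.

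Counts were tested here with edgeR 4.0.16 in R 4.3.3 (filterByExpr, TMM factors, robust quasi-likelihood fit, adjusted p under 0.05, no covariate). CPM uses the TMM-scaled library sizes. The SE is the absolute log2 change over the square root of F. The biological coefficient of variation was 0.0871. The fit was checked on simulated data. The 15 alternatives were other scalings (DESeq2 1.42.0 factors, upper quartile, total counts), no filter, DESeq2, limma 3.58.1, thinned counts, each library left out, the replicate block and, chosen after seeing the data, no robust fit.

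The members and lists were chosen with earlier results of these data known. Values per library were given for each called member, the ATF4 genes, the factors and sensors, and a few uncalled members named after their values were seen. From the other lists, the 2 genes with the smallest adjusted p in each direction and those changed at least 2-fold were named.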

Additional observations from a re-analysis of the deposited data

How the results depend on the processing

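Over the 15 alternatives, 7 to 10 members were higher and 0 to 2 lower. Hspa5, Dnajb11, Dnajc3, Manf, Syvn1 and Chac1 were called in all of them. The count of members lower was 2 with upper-quartile factors, total counts alone or the replicate block, and 0 with no filter on low counts, the DESeq2 Wald test and limma on the deposited log2 values. With a library left out it ranged from 0 to 2, and the count of ATF4 genes higher from 1 to 3. The count of chaperone and ERAD genes higher and both counts over all genes stayed within 1.5 times their values in every alternative. Signs of uncalled members turned in 9 values. Xbp1 had -0.02 with upper-quartile factors, -0.012 with total counts alone and -0.0025 with thinned counts. Hsp90b1 had -0.015 with upper-quartile factors and -0.0073 with total counts alone. With a library left out, Xbp1 ranged from -0.055 to 0.153, Derl2 from -0.138 to 0.050 and Ddit3 from -0.106 to 0.030. With the replicate number as a block, 9 members were higher and 2 lower (Ssr1 added). The labels give no link between equal numbers, and the deviations of same-numbered libraries correlated at 0.022, 0.076 and -0.001, so the libraries were not treated as paired. The causes of these shifts were not tested. Depth left 1 member (Derl3) untested and few counts for Ern1 and Eif2ak3.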
